A study of Mus musculus with 9 samples.

Results

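The 10 genes of the circadian clock and its BHLHE40/41 arm described here were measured in activated mouse CD4 T cells that had, lacked or had been stimulated through CD69: Bhlhe40, Bhlhe41, Per1, Per2, Per3, Nr1d1, Nr1d2, Dbp, Arntl and Cry1. They were chosen by name, as the probe sets whose single platform gene symbol or synonym is one of these names, and all 10 of 10 were found among the 19938 genes measured. Where a gene had several probe sets the brightest by its mean over all 9 arrays was to be taken. Each of the 10 had 1 probe set, so no measured value decided which probe set was read. The list of names itself was drawn up with earlier results of these data known. Its p-values and ranks are thus not those of an unselected list. Bhlhe40 was read by probe set 10540472 and Bhlhe41 by probe set 10549276, both genes of chromosome 6.

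The cells were CD4-enriched T cells from the spleen of C57BL/6J mice, cultured for 72 h with beads coated with anti-CD3 and anti-CD28 antibodies, which engage the T cell receptor complex and its costimulator. Wild-type cells, CD69-/- cells and CD69-activated wild-type cells were hybridised to 3 arrays each. CD69-activated cells had received an anti-CD69 antibody at 24 h of culture and a secondary cross-linking antibody at 48 h, each diluted 1 in 200. The labels name no control culture given an isotype antibody or the cross-linker by itself and give 1 time of collection, so a phase of the clock cannot be read from these samples. Sample titles call the 3 samples of each group biological replicates but do not say that each came from its own mouse. The p-values measure only the spread between the samples, which may not be that between mice.

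In the circadian clock, the bHLH proteins CLOCK and ARNTL (BMAL1) pair up and switch on genes that carry E-boxes, among them the Per, Cry, Nr1d and Dbp genes, and the PER and CRY proteins then block that pair. BHLHE40 (DEC1) and BHLHE41 (DEC2) are bHLH repressors that bind E-boxes and feed back on the same targets, while the nuclear receptors NR1D1 and NR1D2 (REV-ERB alpha and beta) repress Arntl through ROR sites and DBP acts through D-boxes. In CD4 T cells BHLHE40 is induced by T cell receptor signals and is known for its part in cytokine production, and BHLHE41 is also made in other immune cells, macrophages and some B cells included.

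Promoter stretches of genes that hold letters of such sites are shown, because the proteins above act through E-boxes, ROR sites and D-boxes. RefSeq windows of 300 bases on GRCm38.p6, from 250 bases before to 50 after an annotated start, were searched on both strands for the E-box CACGTG, the E′-box CACGTT, the D-box TTATGTAA, the ROR site AGGTCA and the CRE TGACGTCA, and capitals mark a match in either direction. The genes shown are members with an E-box, E′-box, AGGTCA or D-box in their first window. Ciart, another E-box repressor of the clock described further on, is shown as well.
Bhlhe41, chr6:145865551-145865590, minus strand: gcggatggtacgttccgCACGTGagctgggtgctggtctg
Per1, chr11:69098766-69098834, plus strand: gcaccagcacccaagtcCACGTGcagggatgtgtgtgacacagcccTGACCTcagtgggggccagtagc
Per3, chr4:151044799-151044887, minus strand: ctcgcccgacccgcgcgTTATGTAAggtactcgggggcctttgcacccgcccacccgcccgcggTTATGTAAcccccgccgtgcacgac
Nr1d1, chr11:98775383-98775422, minus strand: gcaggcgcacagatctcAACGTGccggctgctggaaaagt
Nr1d2, chr14:18239161-18239200, minus strand: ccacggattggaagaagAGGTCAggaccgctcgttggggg
Cry1, chr10:85185092-85185150, minus strand: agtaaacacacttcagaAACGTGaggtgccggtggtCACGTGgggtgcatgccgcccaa
Ciart, chr3:95882264-95882361, minus strand: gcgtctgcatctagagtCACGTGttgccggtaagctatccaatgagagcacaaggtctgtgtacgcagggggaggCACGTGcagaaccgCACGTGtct

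The E-box of Bhlhe41 begins at position -153 from the start, that of Per1 at -166 and that of Cry1 at -60. Per3 holds the D-box letters at -205 and again at -158, and Ciart holds 3 E-boxes. Arntl has an AGGTCA after the start in its second window, and the window of Dbp holds none of the 5 motifs. Of all 32851 windows of this length, 7.15% hold an E-box, 4.68% an E′-box, 0.938% a D-box, 16.3% the letters AGGTCA and 1.79% a CRE. A match describes letters and was not tested for binding.

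Values are log2 expression values from RMA, the authors' normalization, with a median of 7.40 to 7.56 in each array. Arrays of the same group correlated at 0.998 to 0.999 across genes and arrays of different groups at 0.991 to 0.997. The targeted gene Cd69 read 12.03, 12.12 and 12.37 in the wild-type arrays, 9.65, 9.49 and 9.63 in the CD69-/- arrays and 11.80, 11.84 and 11.74 in the CD69-activated arrays. All 3 CD69-/- arrays also carried Y-linked transcripts that the other 6 lacked (mean Eif2s3y 9.78 against 4.33 in wild type and 4.35 in CD69-activated cells) and were low in the female transcript Xist (6.01 against 12.59 and 12.95), so sex and genotype cannot be told apart in any comparison with CD69-/- cells. The T cell gene Cd3e was bright in all groups (means of 12.50, 12.88 and 12.38), and so was the B cell gene Cd79b (13.61, 13.36 and 13.54), each in wild-type, CD69-/- and CD69-activated cells in that order. In such bulk samples fewer cells of a type and less RNA per cell cannot be told apart.

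Bhlhe41 and Bhlhe40 moved most among the 10 genes, and in opposite orders. Bhlhe41 was lowest in CD69-/- cells and highest in CD69-activated cells, and Bhlhe40 was highest in CD69-/- cells and lowest in CD69-activated cells. For both genes all 3 groups were separate from one another, with no array of one group inside the range of another. Such separation is not particular to them, since Id2, Myc and Il2, described below, also had 3 separate groups. The share of all genes separated in this way was not counted, here or for genes described below.

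The log2 value of Bhlhe41 was 8.61, 8.60 and 8.72 in the wild-type arrays, 7.42, 7.52 and 7.56 in the CD69-/- arrays and 9.11, 9.40 and 9.33 in the CD69-activated arrays. Every CD69-/- array thus lay more than 1 log2 unit below every wild-type array, and every CD69-activated array lay above all wild-type arrays. In CD69-/- cells it fell by 1.14 against wild type, a 2.21-fold change (SE 0.0701, 95% interval -1.3 to -0.989, limma adjusted p = 2.04e-06, n = 3 per group). In CD69-activated cells it rose 1.55-fold against wild type (log2 difference 0.64, 95% interval 0.482 to 0.791, limma adjusted p = 9.05e-05). Between CD69-activated and CD69-/- cells the difference was 1.78, or 3.43-fold (95% interval 1.63 to 1.93, limma adjusted p = 1.83e-08). By absolute size its difference ranked 18 of 19938 genes between CD69-/- and wild type, 256 between CD69-activated and wild type, and 23 between CD69-activated and CD69-/- cells.

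Bhlhe40, the paralogue, read 10.70, 10.76 and 10.76 in the wild-type arrays, 10.98, 10.92 and 10.96 in the CD69-/- arrays and 10.30, 10.41 and 10.28 in the CD69-activated arrays. The highest group here is the one in which Bhlhe41 was lowest. Against wild type Bhlhe40 rose 1.16-fold in CD69-/- cells (log2 difference 0.21, SE 0.0416, 95% interval 0.123 to 0.307, limma adjusted p = 0.00449). In CD69-activated cells it fell by 0.41, or 1.33-fold (95% interval -0.501 to -0.318, limma adjusted p = 5.45e-05). The direct difference between CD69-activated and CD69-/- cells was -0.62 (95% interval -0.716 to -0.533, limma adjusted p = 8.25e-07), which is also the test of the difference between both effects, since they share the wild-type arrays. The changes of Bhlhe40 were smaller than those of Bhlhe41 and ranked 2049, 772 and 676 of 19938 genes in the 3 comparisons.

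**Figure D1:**
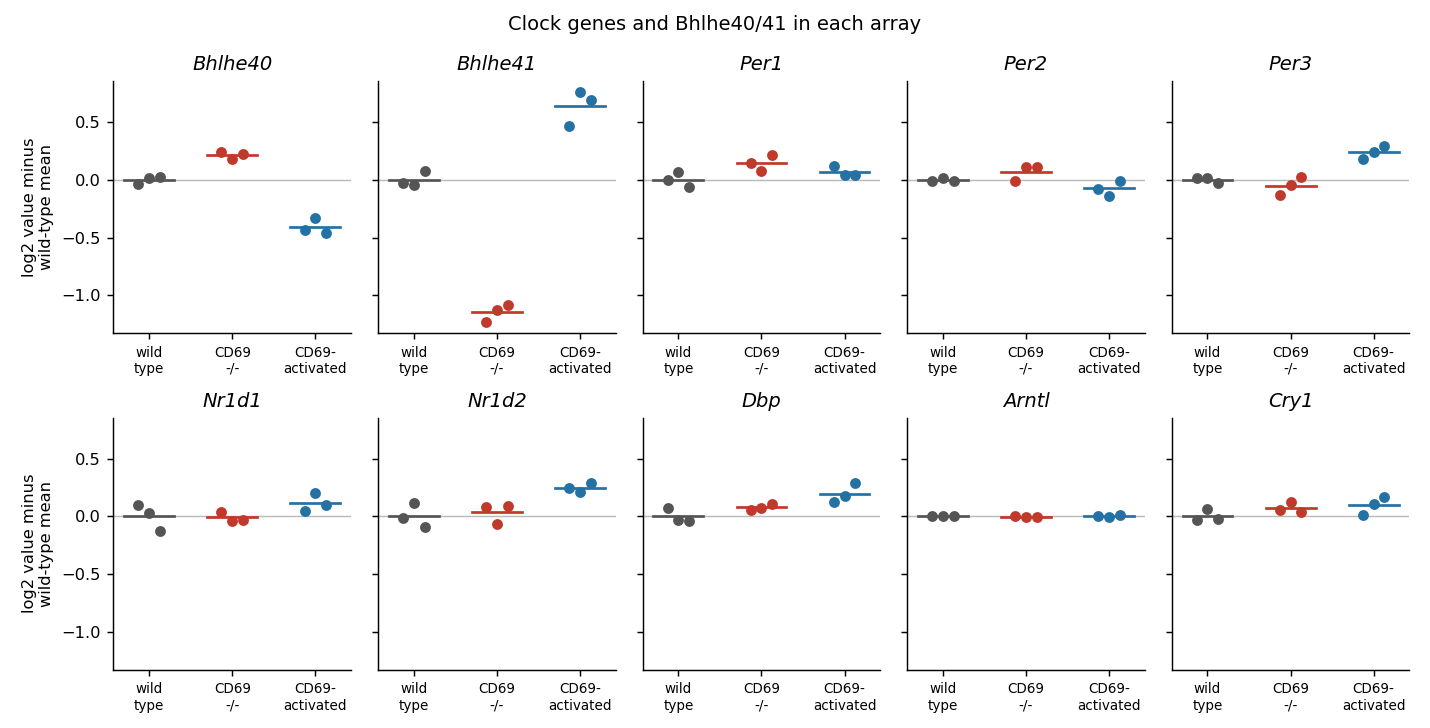
The log2 value of each of the 10 genes in each of the 9 arrays, minus that gene's wild-type mean, with 1 dot per array and a bar at each group's mean (n = 3). Bhlhe41 spans from 1.14 below (CD69-/- mean) to 0.64 above (CD69-activated mean) its wild-type mean and Bhlhe40 runs the other way, while the dots of Arntl lie on 1 line.

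Markers of T cells and of other cells also differed between the groups. In CD69-activated cells the B cell and myeloid list means were below wild type, where Bhlhe41 was above it, while single markers of both lists went either way. At a limma adjusted p under 0.05, 8.36% of all genes were higher and 6.78% lower in CD69-/- cells than in wild type. In CD69-activated cells 10.1% were higher and 13.7% lower. By a limma adjusted p under 0.05, in CD69-/- cells 11 of 12 CD4 T cell markers were higher than in wild type (array means of 11.72 to 11.75 against 11.26 to 11.35), 17 of 17 B cell markers were lower (11.36 to 11.45 against 11.92 to 11.96) and 18 of 26 monocyte, macrophage and dendritic cell markers were lower (7.61 to 7.68 against 8.06 to 8.10). In CD69-activated cells the list means lay closer to wild type. They were 11.20 to 11.22 for CD4 T cells, 11.84 to 11.91 for B cells and 8.04 to 8.06 for monocytes, macrophages and dendritic cells. Against wild type 0 of the 12 CD4 T cell markers were higher and 4 lower. Of the 17 B cell markers 2 were higher and 4 lower, and of the 26 myeloid markers 5 were higher and 6 lower. The CD4 T cell list means thus stood in the order of Bhlhe40, highest in CD69-/- and lowest in CD69-activated cells. Adgre1, the macrophage marker F4/80, stood in the order of Bhlhe41, with means of 7.99 in CD69-/-, 9.85 in wild type and 10.70 in CD69-activated cells. It fell by 1.86 in CD69-/- cells (limma adjusted p = 1.23e-09) and rose by 0.85 in CD69-activated cells (adjusted p = 4.87e-07), and Csf1r, the receptor for a macrophage growth factor, fell by 0.38 (adjusted p = 0.00069) and rose by 0.20 (adjusted p = 0.0247). Cd14 (means of 6.34 in CD69-/-, 6.82 in wild type and 7.28 in CD69-activated cells) and Lyz2 (7.45, 8.21 and 8.56) stood in the same order. Among the 6 myeloid markers lower in CD69-activated cells than in wild type, opposite to Bhlhe41, were Flt3 (-0.78), C1qb (-0.53), Clec7a (-0.45) and Itgax (-0.35). Their limma adjusted p were 1.78e-07, 0.00179, 0.00143 and 0.000497. Of the B cell markers, Cd72 had means of 12.12 in CD69-/-, 12.62 in wild type and 12.83 in CD69-activated cells. Cr2 had means of 8.24, 8.69 and 8.86, and both genes stood in the order of Bhlhe41. Fcer2a (10.69, 11.65 and 11.24) and Vpreb3 (9.18, 10.08 and 9.69) were instead highest in wild type. Cd14, Lyz2, the myeloid fallers and these B cell markers were named after their values were seen.

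Both CD8 T cell markers stood in the order of Bhlhe40 in all 3 groups, with array means of 12.33 to 12.39 in CD69-/-, 11.81 to 11.84 in wild type and 11.32 to 11.52 in CD69-activated cells. Cd8a rose by 0.61 in CD69-/- cells (limma adjusted p = 2.97e-05) and fell by 0.54 in CD69-activated cells (adjusted p = 7.55e-05). Of the NK cell markers 9 of 10 fell in CD69-activated cells (array means of 8.01 to 8.08 against 8.78 to 8.85 in wild type). In CD69-/- cells 4 of the 10 were higher and 4 lower, and the array means of 8.81 to 8.86 overlapped wild type. Erythroid markers had array means of 8.13 to 8.15 in wild type, 7.49 to 7.65 in CD69-/- and 7.84 to 7.87 in CD69-activated cells. Of the 8, 4 were lower and 1 higher in the second group, and 3 lower and 1 higher in the third. Platelet markers had group means of 7.93, 7.57 and 7.65 in the same order of groups, with 3 of 4 lower in each comparison with wild type. Of 18 neutrophil and mast cell markers 5 were lower and 1 higher in CD69-/- cells and 7 lower and 1 higher in CD69-activated cells. Of 8 plasma cell markers 4 were lower and 2 higher, then 5 lower and 0 higher. Over all genes 6.78% were lower and 8.36% higher in CD69-/- cells, and 13.7% lower and 10.1% higher in CD69-activated cells. No marker list was at 0, since RMA values carry no true zero or detection call. The part of these cells in the changes of Bhlhe41, Bhlhe40 and the other members was not tested.

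**Figure D2:**
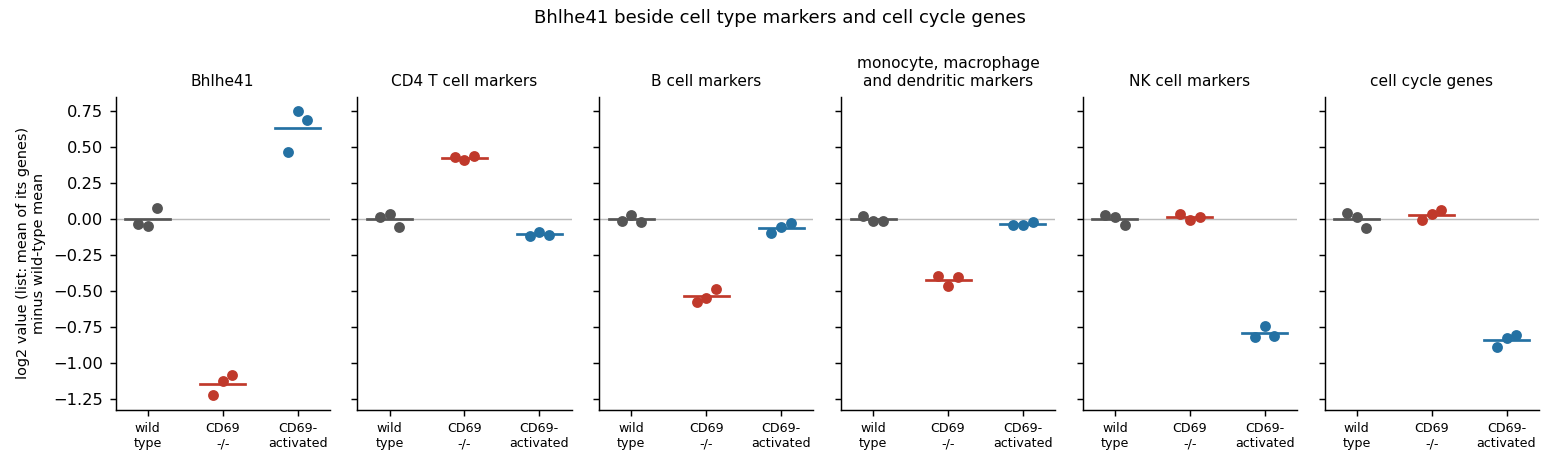
Bhlhe41 beside the means of marker lists and of cell cycle genes, each as a log2 value per array minus its wild-type mean, with a bar at the group mean (n = 3 arrays). Bhlhe41, the B cell list and the myeloid list are low in CD69-/- cells, where the CD4 T cell list is high, and in CD69-activated cells Bhlhe41 is above wild type while the B cell and myeloid lists are slightly below it and the NK cell and cell cycle lists are far below.

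The period genes encode the proteins that, with the cryptochromes, inhibit CLOCK and ARNTL. Per3 was 7.61, 7.61 and 7.57 in the wild-type arrays, 7.47, 7.55 and 7.62 in the CD69-/- arrays and 7.78, 7.83 and 7.89 in the CD69-activated arrays. All CD69-activated arrays were above all others, whereas the wild-type and CD69-/- arrays overlapped. Per3 rose 1.18-fold in CD69-activated cells against wild type (log2 difference 0.24, SE 0.0463, 95% interval 0.134 to 0.339, limma adjusted p = 0.0036) and was 0.29 higher than in CD69-/- cells (adjusted p = 0.000497). Its difference between CD69-/- cells and wild type was -0.05 (95% interval -0.154 to 0.0505, limma adjusted p = 0.533).

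Per2 read 8.06, 8.08 and 8.06 in the wild-type arrays, 8.06, 8.17 and 8.18 in the CD69-/- arrays and 7.98, 7.93 and 8.06 in the CD69-activated arrays. The groups overlapped, and 4 of the 9 arrays carried exactly the same value. It was 0.15 lower in CD69-activated than in CD69-/- cells (95% interval -0.246 to -0.045, limma adjusted p = 0.0245), and neither group passed the test against wild type (0.07 in CD69-/-, adjusted p = 0.366, and -0.07 in CD69-activated cells, adjusted p = 0.271). The one call was lost when either CD69-/- replicate 2 or replicate 3, or CD69-activated replicate 1 or replicate 2, was left out (limma adjusted p of 0.0843, 0.0869, 0.0553 and 0.0805, in a range of 0.0105 to 0.0869 over 19 alternatives).

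Per1, which is also an early target of cAMP and glucocorticoid signals, was 9.73, 9.80 and 9.68 in the wild-type arrays, 9.88, 9.81 and 9.95 in the CD69-/- arrays and 9.85, 9.78 and 9.78 in the CD69-activated arrays. The CD69-/- arrays all lay above the wild-type arrays, with a log2 difference of 0.14 (95% interval 0.0366 to 0.247) that did not pass the test (limma adjusted p = 0.0733). CD69-activated arrays overlapped both other groups (0.07 against wild type, adjusted p = 0.348). With arrays centred on their medians the CD69-/- difference was 0.18 and passed the test (adjusted p = 0.0139, the lowest over 19 alternatives, which reached up to 0.24).

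Nr1d1 and Nr1d2 encode haem-binding repressors of Arntl. Nr1d2 had log2 values of 9.38, 9.51 and 9.30 in the wild-type arrays, 9.48, 9.33 and 9.48 in the CD69-/- arrays and 9.64, 9.60 and 9.68 in the CD69-activated arrays, and the CD69-activated arrays were above all 6 others. It rose 1.19-fold against wild type (log2 difference 0.25, SE 0.0588, 95% interval 0.119 to 0.378, limma adjusted p = 0.0104) and was 0.21 higher than in CD69-/- cells (adjusted p = 0.0137). The second of these calls was lost without CD69-/- replicate 2 (0.16, limma adjusted p = 0.0594, where the other alternatives lay lower, down to 0.00142). CD69-/- and wild-type arrays overlapped (0.04, 95% interval -0.0935 to 0.166, adjusted p = 0.754).

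Nr1d1 read 8.32, 8.25 and 8.10 in the wild-type arrays, 8.26, 8.18 and 8.19 in the CD69-/- arrays and 8.27, 8.42 and 8.32 in the CD69-activated arrays. The CD69-activated arrays lay above the CD69-/- arrays and overlapped wild type. The differences from CD69-/- cells (0.12, 95% interval -0.0054 to 0.255, limma adjusted p = 0.11) and from wild type (0.12, -0.0147 to 0.246, adjusted p = 0.191) did not pass the test, nor did that between CD69-/- cells and wild type (-0.01, -0.14 to 0.121, adjusted p = 0.947).

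Dbp, a PAR bZIP activator and a classical output of the clock, was 9.08, 8.98 and 8.97 in the wild-type arrays, 9.06, 9.08 and 9.12 in the CD69-/- arrays and 9.13, 9.19 and 9.29 in the CD69-activated arrays. The CD69-activated arrays were again the 3 highest of the 9. Dbp rose 1.15-fold against wild type (log2 difference 0.20, SE 0.048, 95% interval 0.0904 to 0.302, limma adjusted p = 0.0123), a call that was lost without wild-type replicate 2 (0.18, adjusted p = 0.0527, the highest over the alternatives, which went down to 0.00259). Against CD69-/- cells the difference was 0.12 (95% interval 0.0106 to 0.223, limma adjusted p = 0.0722), and between CD69-/- cells and wild type it was 0.08 (-0.0262 to 0.186, adjusted p = 0.329).

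Arntl, the activator that pairs with CLOCK, showed the narrowest range of the 10 genes. Its log2 value was 9.35 in all 3 wild-type arrays, 9.36, 9.35 and 9.34 in the CD69-/- arrays and 9.35, 9.34 and 9.37 in the CD69-activated arrays, and the 3 wild-type values were identical to the last digit given. Its pooled SD within groups was 0.00855, against 0.103 for Bhlhe41 and a median of 0.0598 over all genes, and 0.115% of genes had a smaller one. The limma intervals of its differences were -0.0703 to 0.0677 for CD69-/- minus wild type and -0.0663 to 0.0716 for CD69-activated minus wild type. Exactly equal values in all 3 wild-type arrays occurred for 574 genes, 2.88% of those measured, so such ties are not particular to Arntl.

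Cry1, a cryptochrome that blocks CLOCK and ARNTL, read 8.76, 8.86 and 8.77 in the wild-type arrays, 8.85, 8.92 and 8.83 in the CD69-/- arrays and 8.80, 8.90 and 8.96 in the CD69-activated arrays, and all groups overlapped. None of its differences passed the test (0.07, 0.09 and 0.02 with limma adjusted p of 0.37, 0.193 and 0.76 for CD69-/- cells against wild type, CD69-activated cells against wild type and CD69-activated against CD69-/- cells). The intervals of the first pair reached 0.182 and 0.202 on the log2 scale.

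Counted by comparison, 1 of the 10 genes was higher (Bhlhe40) and 1 lower (Bhlhe41) in CD69-/- cells than in wild type, where 8.36% of all genes were called higher and 6.78% lower at a limma adjusted p under 0.05. These shares of the members are near those of all genes. In CD69-activated cells 4 rose against wild type (Bhlhe41, Per3, Nr1d2 and Dbp) and 1 fell (Bhlhe40), where 10.1% of all genes rose and 13.7% fell. Between CD69-activated and CD69-/- cells 3 were higher (Bhlhe41, Per3 and Nr1d2) and 2 lower (Bhlhe40 and Per2), where 21.6% of all genes were higher and 21% lower. The median log2 difference of the 10 genes was 0.0533, 0.105 and 0.0684 in these comparisons, against -0.00908, 0.0165 and 0.0352 over all genes. Without CD69-/- replicate 2 the last comparison called 3 of the members in place of 5.

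**Figure D3:**
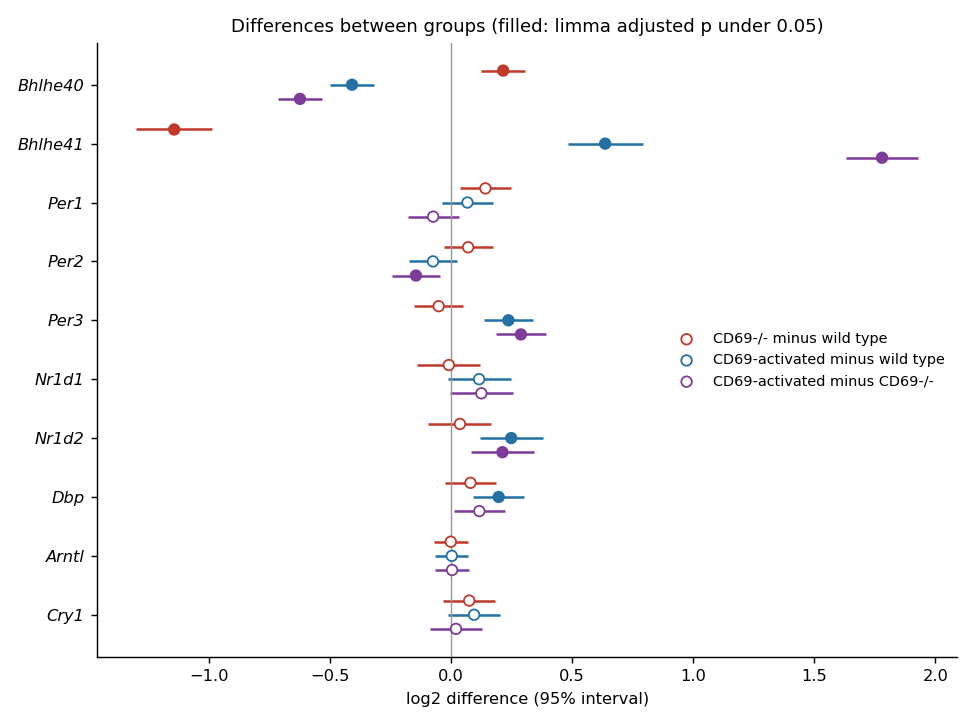
Log2 differences between groups for the 10 genes, with 95% limma intervals, in 3 comparisons given by colour. Filled points passed a limma adjusted p under 0.05: Bhlhe41 at -1.14, 0.64 and 1.78 and Bhlhe40 at 0.21, -0.41 and -0.62 lie farthest from 0 within each comparison, and Per3, Nr1d2 and Dbp lie between 0.20 and 0.25 in CD69-activated cells against wild type.

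Of 38 other clock genes listed, 33 were measured. In CD69-/- cells 4 of the 33 were higher and 0 lower than in wild type by limma, with a median difference of 0.0151 over the 33, and 2 were lower at an unadjusted p under 0.05. At a limma adjusted p under 0.05, 8.36% of all genes were higher and 6.78% lower. The count of 4 became 2 without wild-type replicate 3, and 7 with median centring or with array weights (5 higher and 2 lower with the weights). In CD69-activated cells 3 were higher and 9 lower than in wild type (median -0.0195), where 10.1% of all genes were higher and 13.7% lower, and without wild-type replicate 2 the 12 calls became 7. Between CD69-activated and CD69-/- cells 6 were higher and 13 lower (median -0.0541), where 21.6% and 21% of all genes were. The shares of higher genes in the last pair of comparisons are near those of all genes.

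Ciart (CHRONO), a repressor that acts on CLOCK and ARNTL at E-boxes, was 9.23, 9.34 and 9.22 in the wild-type arrays, 9.81, 9.78 and 9.68 in the CD69-/- arrays and 9.08, 9.13 and 9.14 in the CD69-activated arrays. The 3 groups did not overlap and stood in the order of Bhlhe40, with CD69-/- highest. Ciart rose by 0.49 in CD69-/- cells (limma adjusted p = 3.53e-05), fell by 0.15 in CD69-activated cells (adjusted p = 0.043) and was -0.64 between CD69-activated and CD69-/- cells (adjusted p = 1.69e-06).

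Nfil3 (E4BP4), a repressor at D-boxes and a factor of NK cell and T helper development, had values of 9.30, 9.37 and 9.21 in the wild-type arrays, 9.70, 9.55 and 9.74 in the CD69-/- arrays and 8.68, 8.70 and 8.94 in the CD69-activated arrays, in the same order and again without overlap. It rose by 0.37 in CD69-/- cells (limma adjusted p = 0.0056) and fell by 0.52 in CD69-activated cells (adjusted p = 0.000493). Tef, a PAR bZIP activator at the same sites and a relative of Dbp, rose by 0.20 in CD69-activated cells against wild type (limma adjusted p = 0.00473) and was at 0.06 in CD69-/- cells (adjusted p = 0.376).

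The other genes called in CD69-/- cells were Usp2, a deubiquitinase of clock proteins, at 0.24 (limma adjusted p = 0.0226), and Rora, a nuclear receptor that activates Arntl, at 0.18 (adjusted p = 0.0377). Rora did not pass the test in CD69-activated cells (0.11, adjusted p = 0.17). Clock itself had differences of 0.01 in CD69-/- and 0.09 in CD69-activated cells (limma adjusted p = 0.895 and 0.14), and Cry2 of 0.01 and 0.08 (adjusted p = 0.884 and 0.264). Neither gene passed the test in these comparisons with wild type.

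The genes that fell most in CD69-activated cells were Tipin (-0.81, limma adjusted p = 1.09e-05), Nfil3, Wee1 (-0.35, adjusted p = 0.0108) and Timeless (-0.31, adjusted p = 0.00395). Tipin and Timeless form a complex that guards replication forks, and WEE1 is a kinase that holds back mitosis. Cell cycle genes moved in the same arrays: 19 of 19 measured fell in CD69-activated cells against wild type (median -0.816), where 13.7% of all genes fell. The mean log2 value of the cell cycle genes per array was 9.67 to 9.77 in wild type, 9.72 to 9.80 in CD69-/- and 8.84 to 8.93 in CD69-activated cells. Their part in the falls of these genes was not tested.

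**Figure D4:**
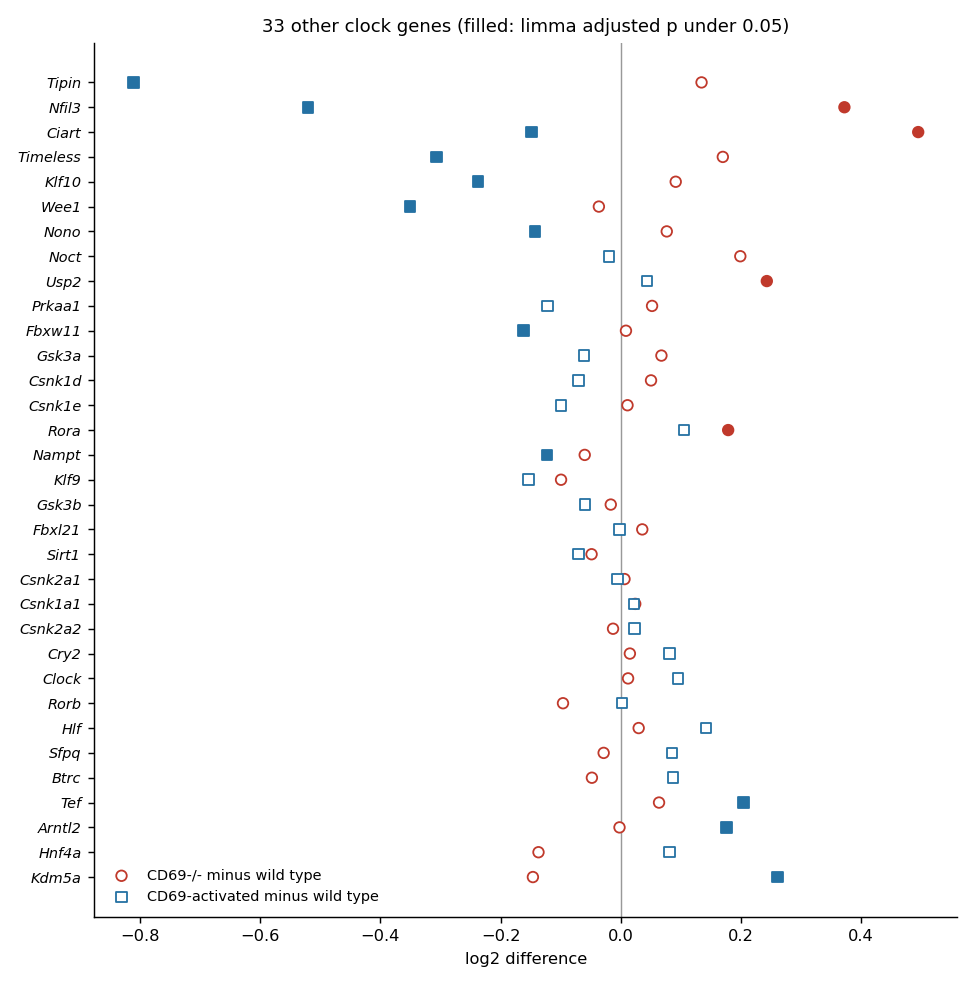
Log2 differences from wild type of 33 clock genes that are not among the 10 members, in CD69-/- cells (circles) and CD69-activated cells (squares), filled where the limma adjusted p was under 0.05 and ordered by the difference between CD69-activated and CD69-/- cells. Ciart and Nfil3 lie to the right in CD69-/- cells (0.49 and 0.37) and to the left in CD69-activated cells (-0.15 and -0.52), and Tipin lies farthest to the left at -0.81.

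T cell genes linked to BHLHE40 in earlier work changed in the same samples. Of 7 measured, 5 were higher and 2 lower in CD69-/- cells (median 0.314), where 8.36% and 6.78% of all genes were. In CD69-activated cells 0 were higher (also 0 at an unadjusted p under 0.05) and 5 lower by limma (median -0.624), where 10.1% and 13.7% of all genes were. Il10, an inhibitory cytokine that BHLHE40 is known to repress, rose by 0.94 in CD69-/- cells (limma adjusted p = 6.83e-06) and fell by 0.54 in CD69-activated cells (adjusted p = 0.000278). Ifng, the main cytokine of T helper 1 cells, rose by 0.45 in CD69-/- cells (limma adjusted p = 4.82e-05) and fell by 2.57 in CD69-activated cells (adjusted p = 1.95e-10). Il2, a T cell growth factor, rose by 0.61 (limma adjusted p = 0.00026) and fell by 1.03 (adjusted p = 6.67e-06) in the same comparisons, and its receptor chain Il2ra rose by 0.31 (adjusted p = 0.000501) and fell by 0.76 (adjusted p = 9.73e-07). Csf2, the GM-CSF gene and a known target that BHLHE40 raises, is named after its values were seen: it fell in both, by 0.37 (limma adjusted p = 0.00975) and by 0.62 (adjusted p = 0.000287).

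The genes whose pattern over the 9 arrays was most like that of each member were found by the root mean square difference after each gene was centred and divided by its own SD. For Bhlhe41 they were Snx5 (0.0582 SD), Arhgap17 (0.071) and Rhoq (0.0823). Their own log2 differences were smaller than that of Bhlhe41, from -0.357 to -0.446 in CD69-/- and from 0.214 to 0.238 in CD69-activated cells against wild type. For Bhlhe40 they were the NKG2D gene Klrk1 (0.0843), the immediate early factor Egr1 (0.089) and Ece2 (0.0893). Klrk1 differed by 0.41 in CD69-/- and -0.73 in CD69-activated cells, and Egr1 by 0.212 and -0.33.

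The smaller changes of the remaining called members had less close neighbours. Per3 was nearest to Trim11 (0.178), St3gal6 (0.184) and Cnot10 (0.185), Nr1d2 to Habp4 (0.205), Aqp7 (0.234) and Olfr502 (0.238), Dbp to Ppp1r12a (0.203), Naa30 (0.236) and Zfp142 (0.245), and Per2 to Cep41 (0.231), Echs1 (0.242) and Shmt1 (0.316). These are descriptions over 9 arrays, with no test.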

How the data were processed

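Total RNA from 9 cultures was hybridised to 1-colour Affymetrix mouse gene arrays. Per the submitters' processing notes, the authors ran RMA (oligo package, R 2.12.1), and the deposited table holds its log2 values. For the genome build and annotation, nothing is stated in the sources used here. RMA's between-array scaling assumes similar distributions in all arrays and its values carry no detection call, so a low level is no proof of expression.

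The table holds 35556 probe sets, of which 21789 have 1 gene symbol in the platform annotation, 1621 several and 12146 none. The brightest probe set by mean over all arrays stood for a gene (999 genes had several), giving 19938 genes. Limma 3.58.1 in R 4.3.3 (lmFit on 3 group means over 9 arrays, eBayes with no trend, 6 residual degrees of freedom and 4.78 from the prior) gave two-sided p-values, adjusted by Benjamini-Hochberg over all genes, and an adjusted p under 0.05 was called. No level of one probe set was set against that of another. In simulated data for 19938 genes, 70%, 72% and 58% of genes changed 1.2-fold were called between CD69-/- cells and wild type, CD69-activated cells and wild type, and CD69-activated and CD69-/- cells, and 98%, 98% and 100% of those changed 1.5-fold.

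The members and all gene lists were chosen with earlier results of these data known. Named besides the members were up to 4 called clock genes per comparison with the largest difference (Clock, Cry2, Rora, Nfil3 and Tef always), up to 3 called genes of each other list, the defining markers, label checks and the 3 nearest patterns. Promoters came from the RefSeq table on GRCm38.p6, which matched 8 of 10 members and 26 of 33 other clock genes (Bhlhe40 and Per2 are not among them). Alternatives were other scalings, filters, probe set rules, fits, a replicate block and leaving out each array. Python 3.11.15 with matplotlib 3.10.9 drew the figures.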

Additional observations from a re-analysis of the deposited data

How the results depend on the processing

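Over 19 alternatives (9 of them leaving out 1 array each), 25 of 30 member differences never changed their call, the rises and falls of Bhlhe40, Bhlhe41 and Per3 included. Of the differences with a call, 0 changed sign. Some without a call did, such as Nr1d1 between CD69-/- cells and wild type (-0.0711 to 0.0386). The alternatives with other probe set rules could not change a member's own values, since each had 1 probe set. Besides the values given with Per1, Per2, Nr1d2 and Dbp, the Per2 difference between CD69-activated and CD69-/- cells missed the threshold when only the arrays compared were fitted (limma adjusted p = 0.0541), and that of Dbp passed it with cyclic loess (0.18, adjusted p = 0.00578) and without CD69-activated replicate 1 (0.15, adjusted p = 0.0348). For CD69-/- minus wild type the 4 called among the other clock genes became 7 with median centring, 7 with array weights (5 higher and 2 lower), and 2 to 6 when 1 array was left out, with 2 without wild-type replicate 3. For CD69-activated minus wild type their 12 became 7 to 12 on leaving out 1 array, with 7 without wild-type replicate 2. The 5 members called between CD69-activated and CD69-/- cells became 3 to 5. Median centring moved the split of all genes called between CD69-/- and wild type from 1667 higher and 1351 lower to 2555 and 1071. The labels do not say whether replicate numbers pair the samples. Deviations of same-numbered arrays from their group means correlated at -0.242 to 0.142, and those of differently numbered arrays at -0.143 to 0.196. Such correlations cannot tell whether same-numbered samples shared a mouse or a day. A fit with the replicate block called 2, 5 and 5 members, as without it, and 4, 10 and 19 other clock genes. With 3 arrays a group, changes of 1.2-fold were often missed in the simulation, in which few genes changed. The calls of Per2, Per3, Nr1d2 and Dbp are near that size or smaller.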

Other observations

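Of 32 other bHLH and E-box factors measured, 4 were higher and 6 lower in CD69-/- cells than in wild type by limma (8.36% and 6.78% of all genes), and 3 were higher and 7 lower in CD69-activated cells (10.1% and 13.7% of all genes). In each of these comparisons 22 of the 32 were not called. Myc, the growth regulator, rose by 0.24 in CD69-/- cells (limma adjusted p = 0.000711) and fell by 0.81 in CD69-activated cells (adjusted p = 1.14e-07). Id2, an inhibitor of E proteins, rose by 0.28 (limma adjusted p = 0.000759) and fell by 0.34 (adjusted p = 0.000176), the order of Bhlhe40. Tfec, a MiT family factor of myeloid cells, fell by 0.42 (limma adjusted p = 0.000285) and rose by 0.19 (adjusted p = 0.0259), the order of Bhlhe41. Tcf4, an E protein, fell by 0.38 in CD69-/- cells (limma adjusted p = 0.000144) and was at 0.09 in CD69-activated cells (adjusted p = 0.17).

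Genes of the glucocorticoid and cAMP responses, which can set Per1, gave 2 higher and 2 lower of 12 in CD69-/- cells (8.36% and 6.78% of all genes) and 1 higher and 4 lower in CD69-activated cells (10.1% and 13.7% of all genes). Nr4a1, an immediate early gene of T cell receptor signals, fell by 0.97 in CD69-activated cells (limma adjusted p = 4.16e-07) and was at 0.04 in CD69-/- cells (adjusted p = 0.681). Fkbp5, a glucocorticoid target, fell by 0.48 in CD69-activated cells (limma adjusted p = 0.000333). Fos rose by 0.28 (limma adjusted p = 0.0428) and Crem by 0.17 (adjusted p = 0.0166) in CD69-/- cells. Sgk1, a kinase induced by glucocorticoids, fell by 0.22 (limma adjusted p = 0.00847) and Nr3c1, the glucocorticoid receptor, by 0.17 (adjusted p = 0.0303, named after its values were seen) in the same comparison, and Sgk1 fell by 0.21 in CD69-activated cells (adjusted p = 0.00708).

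Cd69, Bhlhe40 and Bhlhe41 lie on the same chromosome. Of 142 measured genes that RefSeq places between Cd69 and Bhlhe41, 12.7% were higher and 12% lower in CD69-/- cells than in wild type, against 9.1% and 8.74% of the 1099 genes of chromosome 6. Between Cd69 and Bhlhe40 the shares were 9.83% and 10.3% of 234 genes.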
